A study of Mus musculus with 4 samples.

Results

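Interferon-stimulated genes were compared between CD8αβ+ intraepithelial lymphocytes (IELs) of the small intestine and CD8αβ+ splenocytes (SPLs). A list of 39 genes was used, and 38 of them were found by name on the array, out of 27029 genes named on it. The gene that was not found by name was Dtx3l, which was not analysed here. The 38 genes were covered by 58 probes, 16 of them had more than 1 probe, and each was read at the probe with the highest mean log2 signal over the arrays. Both groups were sorted from wild-type male mice aged 8 to 12 weeks, as the labels give them. Per the study's text the mice were on a C57BL/6 background, each sample pooled cells of several mice, and the sort took cells positive for CD45, CD3, CD8α, CD8β and TCRβ. The IELs came from the epithelium of the small intestine and the SPLs from the spleen, with 2 samples per group and 1 Agilent 1-color array per sample. The labels name no treatment of the mice or of the cells. The comparison asks how interferon response genes of intestinal CD8 T cells stand beside those of splenic CD8 T cells.

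Interferons are secreted proteins that warn cells of infection. Type I interferons (α and β) signal through the receptor chains Ifnar1 and Ifnar2, and interferon-γ, a product of T cells themselves, signals through Ifngr1 and Ifngr2. The JAK kinases on these receptors phosphorylate STAT proteins. Stat2 and Irf9 belong to a complex that binds the interferon-stimulated response element (ISRE), while the gamma-activated site (GAS) serves interferon-γ signals. The induced genes block viral entry, translation and replication, mark proteins for modification, attack the vacuoles of intracellular microbes, and feed back on the pathway. CD8αβ+ IELs are resident effector memory T cells that lie between the cells of the gut epithelium, close to the commensal microbiota.

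The promoters of the genes were read first for these elements, since the ISRE and the GAS are the sequences that interferon-activated factors bind. RefSeq promoters of assembly GRCm38.p6, from 250 bases before to 50 bases after a start site, were given for 30 of the 39 genes (39 promoters of 32851). An ISRE core was searched on both strands as GAAA, any 2 bases and GAAA, and a GAS core as TTCNNNGAA. An ISRE core lay in a promoter of 15 of the 30 genes, against 1079 of 27025 genes in the whole table (3.99%). A GAS core lay in a promoter of 10 of the 30 (33.3%), against 2582 of all genes (9.55%). The sequences that follow are a selection from the upstream stretches with a core, chosen after the values were seen from genes that are given on each array in the results, with the matched cores in capitals, overlapping cores joined, and written 5′ to 3′ in the direction of the gene.
Isg15 (ISRE): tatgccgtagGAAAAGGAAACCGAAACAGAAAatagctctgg
Oas1a (ISRE): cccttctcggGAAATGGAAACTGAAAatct
Stat2 (ISRE): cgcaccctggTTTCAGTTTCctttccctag
Ifit3 (ISRE, far): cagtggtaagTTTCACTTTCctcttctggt
Ifit3 (ISRE, near): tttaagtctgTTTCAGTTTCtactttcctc
Irgm1 (ISRE): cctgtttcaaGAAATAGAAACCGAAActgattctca
Igtp (ISRE): tctaggaactGAAACTGAAAgctgttcggg
Irf1 (GAS): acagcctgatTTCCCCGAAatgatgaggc
Isg20 (GAS): ctggggagggTTCTTGGAAtttttccttt

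The Isg15 stretch (chr4:156200865-156200906, minus strand) held 3 overlapping cores between positions -78 and -57 from the start site. The Oas1a stretch (chr5:120907526-120907555, minus strand) held 2 overlapping cores between positions -20 and -5, and the Irgm1 stretch (chr11:48871425-48871460, minus strand) held 2 between -30 and -15. In Ifit3 the cores lay apart, at -156 to -147 (chr19:34583363-34583392, plus strand) and at -122 to -113 (chr19:34583397-34583426, plus strand), both read on the opposite strand, as was the core of Stat2 (chr10:128270266-128270295, plus strand). The Igtp core (chr11:58199512-58199541, plus strand) stood 3′ of a GAS core in the same promoter. The GAS cores of Irf1 (chr11:53769914-53769942, plus strand) and Isg20 (chr7:78913341-78913369, plus strand) stood in promoters without an ISRE core. An ISRE core was present in the promoters of 4 of the 6 genes with an entry that were higher on both IEL arrays than on both SPL arrays, of 6 of the 15 that were lower, and of 5 of the 8 that overlapped. The promoters of Oasl1, Oasl2, Ifi44 and Trim25 held neither core in this window, and no promoter entry was given for Usp18, Oas2, Mx2 or Iigp1. These matches describe letters in a window and are no measure of binding.

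Levels are given as log2 signal minus the array's 75th percentile, so that a level of 0 is that percentile of the array itself. Signals of different probes are not compared, since probes bind their targets differently. The 4 arrays lay on 2 slides, with IEL 1 and SPL 2 on slide 1, and IEL 2 and SPL 1 on slide 2. The 75th percentile was between 312 and 605 fluorescence units, and between 63.6% and 69.6% of 41174 probes were well above background. Over 27911 tested probes, IEL 2 correlated with SPL 1 at r = 0.992 and with IEL 1 at r = 0.946. With SPL 2 it correlated at r = 0.973, so IEL 2 stood closer to both spleen samples than to the other IEL sample. SPL 1 in turn correlated less with SPL 2 (r = 0.986) than with IEL 2, and the slide 2 differences compare IEL 2 with SPL 1. The group labels were used as given, so each IEL mean includes IEL 2 and each SPL mean includes SPL 1. Whether either of these samples was mixed or mislabelled was not tested. Larger differences are given per slide as well, and calls that appeared without IEL 2 are stated.

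The marker genes of the sorted cells and of their neighbours differed between the arrays too. All 9 CD8 T cell markers were well above background on every array, and their summed signal was 743 and 819 times the 75th percentile on the IEL arrays and 842 and 830 times on the SPL arrays. The 7 markers of intraepithelial and resident T cells summed to 921 on IEL 1, 330 on IEL 2, 161 on SPL 1 and 61.6 on SPL 2. The 5 markers of recirculating T cells, such as Ccr7, summed to 51.7 on IEL 1 and to between 179 and 208 on the other 3 arrays.

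Markers of gut epithelial cells followed the order IEL 1, IEL 2, SPL 1, SPL 2 as well. The 13 epithelial markers summed to 26.2 on IEL 1, 5.28 on IEL 2, 2.19 on SPL 1 and 0.638 on SPL 2, with all 13 well above background on IEL 1, IEL 2 and SPL 1 and 12 on SPL 2. The 5 Paneth cell markers summed to 218 on IEL 1 and to between 5.26 and 7.47 on the others. The 6 measured goblet cell markers summed to 27.8 on IEL 1, 3.59 on IEL 2, 1.30 on SPL 1 and 0.243 on SPL 2. Several lists of blood and spleen cells were lowest on IEL 1, and there IEL 2 lay near the SPL arrays. The 6 B cell markers summed to 3.56 on IEL 1, with 3 well above background, and to between 19.3 and 25.2 on the others. The 6 measured neutrophil markers summed to 0.0891 on IEL 1, where 1 was well above background, and to between 35.6 and 49.6 on the others. The 5 erythroid markers summed to 1.15 on IEL 1 and to between 75 and 116 on the others. The 4 plasmacytoid dendritic cell markers, of the cells known for making type I interferon, summed to 2.46 on IEL 1 and to between 8.02 and 9.03 on the others. The 8 macrophage markers summed to between 35.7 and 48.4 on all arrays, most of it from Lyz2, while the receptor Csf1r read -4.87 on IEL 1 and 0.53, 0.93 and -0.25 on IEL 2, SPL 1 and SPL 2. The 5 conventional dendritic cell markers summed to 9.56 on IEL 1, 4.57 on IEL 2, 3.36 on SPL 1 and 1.84 on SPL 2, and the 3 NK cell markers to between 2.37 and 3.44 on all arrays. The part of these cells in the results below was not tested, and in bulk RNA fewer cells of a type cannot be told apart from less RNA per cell.

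**Figure D1:**
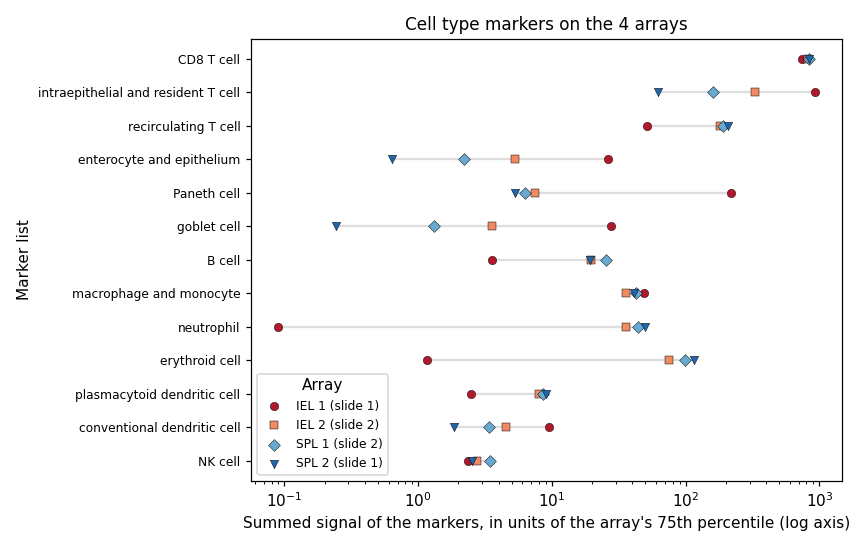
Summed signal of each marker list on each array, in units of the array's 75th percentile on a log axis, 1 symbol per array. CD8 T cell markers sit together near 800 on all 4 arrays, whereas the neutrophil list is at 0.0891 on IEL 1 and between 35.6 and 49.6 elsewhere, and the epithelial list runs from 26.2 on IEL 1 to 0.638 on SPL 2.

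Most interferon-stimulated genes were lower in IELs than in SPLs, but none passed the test. Of the 38 genes, 21 were lower on both IEL arrays than on both SPL arrays, 7 were higher on both, and 10 overlapped. Among 18225 tested genes read at 1 probe by the same rule, 24.7% were lower on both and 24.6% were higher on both. The median log2 fold change was -0.43 over the 38 genes and -0.00304 over all genes. On slide 1 the median difference of the 38 was -0.65, and on slide 2 it was -0.15, against -0.02 and 0.01 over all genes.

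None of the 38 genes was called by limma at an adjusted p of 0.05, with adjusted p between 0.634 and 0.931, and 0% of all tested probes were called. At an unadjusted p of 0.05, 1 of the 38 was higher (Isg15) and 1 lower (Ifi44), against 4.89% and 0.955% of all genes. The methods' unpaired test had 2 of the 38 under that p and 0 after adjustment. With 2 arrays against 2, the smallest p of an exact two-sided permutation test of a single gene is 0.333.

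The size of the differences came from slide 1. There, 12 of the 38 were at least 2-fold lower in IEL 1 than in SPL 2, and 3 were at least 2-fold higher, against 14.2% and 11.7% of all genes. On slide 2, 0 of the 38 differed by 2-fold in either direction, against 3.65% of all genes. Slide 2 differences kept between -0.86 and 0.70, while those of slide 1 ran from -4.47 to 2.34. On each slide most of the 38 were below 0, with 31 on slide 1 and 29 on slide 2. Among all 18225 genes, 9357 were below 0 on slide 1 and 8842 on slide 2. IEL 1 was the lowest of the 4 arrays for 29 of the 38 genes and the highest for 5, against 39.9% and 38.0% of all genes. IEL 2 lay between IEL 1 and SPL 1 for 32 of them, against 61.1% of all genes.

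Without IEL 2, 10 of the 38 genes were called by limma at an adjusted p of 0.05, of which 9 were lower and 1 was higher in IEL 1. The same fit called 10.8% of all genes as lower and 8.94% as higher. The genes called as lower were Oas2, Oasl2, Oasl1, Usp18, Ifit3, Ifit2, Iigp1, Samhd1 and Trim25, and the gene called as higher was Isg15. In that fit the lone IEL array was assumed to vary like the SPL arrays. The call rests on leaving out IEL 2, and with any other single array left out none of the 38 was called.

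**Figure D2:**
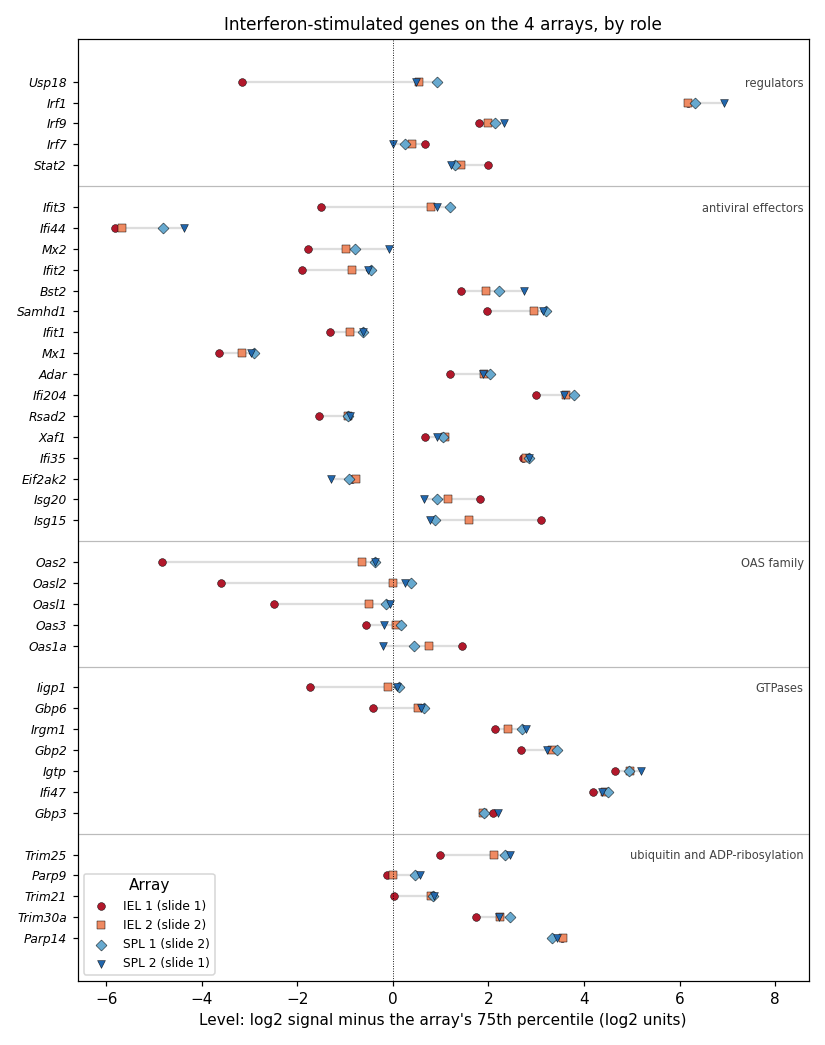
Level of each of the 38 genes on each array (log2 signal minus the 75th percentile), grouped by role, 1 symbol per array. IEL 1 stands apart at the left for Oas2 (-4.84), Oasl2 (-3.61) and Usp18 (-3.16), while the other 3 arrays lie close together. For Isg15 it stands at the right (3.11), and IEL 2 (1.59) also lies above SPL 1 (0.89) and SPL 2 (0.77).

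Among the 5 regulators of the pathway, 2 were higher on both IEL arrays, 2 were lower on both, and 1 overlapped. That is 40% each way, against 24.6% higher and 24.7% lower among all genes. Each role holds few genes, so the counts by role are descriptions only. Usp18, a protease that removes Isg15 from proteins and dampens type I interferon receptor signalling, read -3.16 on IEL 1, 0.55 on IEL 2, 0.92 on SPL 1 and 0.49 on SPL 2. Only IEL 1 was low, and IEL 2 lay between the SPL arrays. The log2 fold change was -2.01 ± 1.28 (SE), with means of -1.30 ± 2.62 in IELs and 0.70 ± 0.30 in SPLs (SD, n = 2 each). On slide 1 the difference was 12.5-fold and on slide 2 it was 1.29-fold. Its adjusted p by limma was 0.634 with all arrays and 0.00622 without IEL 2.

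The transcription factors differed less. Stat2, a STAT protein of the ISRE-binding complex, read 1.99 and 1.44 on IELs and 1.30 and 1.21 on SPLs, a log2 fold change of 0.46 ± 0.29 (SE). Irf7, which amplifies type I interferon production, read 0.67 and 0.40 on IELs and 0.25 and 0.01 on SPLs. Both were higher on both IEL arrays, by less than 2-fold on either slide. Irf9, the DNA-binding subunit of that complex, read 1.81 and 1.99 on IELs and 2.13 and 2.33 on SPLs. Irf1, induced by interferon-γ and carrying the GAS core shown above, read 6.17 on both IEL arrays and 6.32 and 6.93 on SPLs. It was lower by 0.46 ± 0.30 (SE) on the log2 scale, and the SPL arrays differed from each other by more than IEL and SPL did on slide 2. The adjusted p of these 4 genes in limma was between 0.634 and 0.641.

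Of the 16 antiviral effectors, 10 were lower on both IEL arrays, 3 were higher on both, and 3 overlapped. The shares were 62.5% lower and 18.8% higher, against 24.7% and 24.6% of all genes. Isg15, a ubiquitin-like protein that is attached to other proteins and also secreted, had the largest positive log2 fold change of the 38 genes. It read 3.11 on IEL 1, 1.59 on IEL 2, 0.89 on SPL 1 and 0.77 on SPL 2. Both IEL arrays were above both SPL arrays, and the SPL arrays differed by 0.12. The means were 2.35 ± 1.07 in IELs and 0.83 ± 0.09 in SPLs (SD, n = 2 each), and the log2 fold change was 1.52 ± 0.56 (SE). Isg15 was 5.05-fold higher in IELs on slide 1 and 1.62-fold higher on slide 2. The limma p was 0.0491 unadjusted and 0.634 adjusted, and the adjusted p was 0.0107 without IEL 2. Isg15 and its protease Usp18 thus stood on opposite sides on IEL 1, and on slide 2 their differences were 0.70 and -0.37.

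The other 2 effectors with higher IEL levels were Isg20 and Eif2ak2. Isg20, an RNA exonuclease, read 1.82 and 1.16 on IELs and 0.92 and 0.65 on SPLs, and its second probe gave a log2 fold change of 0.84 beside 0.71 for the first. Eif2ak2, the double-stranded RNA-activated kinase PKR, which stops translation, read -0.85 and -0.76 on IELs and -0.93 and -1.30 on SPLs, a difference of 0.31 ± 0.26 (SE).

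The 3 measured genes of the IFIT family, whose proteins bind viral RNA and the translation machinery, were lower on both IEL arrays at their main probes. A second, dimmer Ifit2 probe differed by -0.65, and its groups overlapped. Ifit3 read -1.51 on IEL 1, 0.81 on IEL 2, 1.19 on SPL 1 and 0.93 on SPL 2. IEL 1 was far below the other 3 arrays, and IEL 2 was below both SPL arrays by a small margin. The log2 fold change was -1.41 ± 0.82 (SE), with 5.41-fold on slide 1 and 1.31-fold on slide 2, and its adjusted p in limma went from 0.634 to 0.00996 without IEL 2. Ifit2 read -1.91 and -0.86 on IELs against -0.45 and -0.52 on SPLs, with an adjusted p of 0.0249 in limma without IEL 2. Ifit1 read -1.31 and -0.90 against -0.62 and -0.63, and was not called in either fit.

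The MX proteins are dynamin-like GTPases that trap viral particles. The probes of Mx1 and Mx2 also list a non-coding RefSeq transcript of each gene. Their levels are therefore no measure of the proteins, and whether these mice make them was not tested. Mx2 read -1.79 on IEL 1, -0.99 on IEL 2, -0.78 on SPL 1 and -0.07 on SPL 2. IELs were below SPLs, but the SPL arrays differed by 0.71 from each other, close to the fitted difference of -0.96 ± 0.42 (SE). Mx1 read -3.63, -3.16, -2.91 and -2.97 in the same order, and its difference of -0.45 turned to 0.0572 with normexp background correction, so no direction is drawn for it.

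Ifi44, a protein known to restrain cell proliferation and viral growth, was the other gene below an unadjusted p of 0.05 in limma, at 0.0111. It read -5.81 and -5.67 on the IEL arrays, where it was not well above background, and -4.81 and -4.37 on the SPL arrays, where it was. Its adjusted p in limma was 0.634. With its IEL levels held at or above the lowest well-above-background level of each array, it was 2.12-fold lower in IELs. That floor was taken over all probes, so the value is no firm minimum for Ifi44. The lower direction depended on the background correction, since normexp gave a log2 difference of 0.14.

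Samhd1, which depletes the nucleotide pool used by retroviruses, read 1.96 and 2.95 on IELs and 3.20 and 3.14 on SPLs. Its adjusted p in limma was 0.0352 without IEL 2. A second, dimmer Samhd1 probe, which lists a separate transcript, had a log2 fold change of 0.35. Bst2 (tetherin), which holds budding virions on the membrane, read 1.43 and 1.94 on IELs and 2.22 and 2.75 on SPLs, a difference of -0.80 ± 0.34 (SE). Rsad2 (viperin) differed by -0.32 at its main probe, where the groups were apart by only 0.00208 log2 units. Its place among the genes lower on both IEL arrays rests on that margin. Its 2 dimmer probes differed by 0.06, where the groups overlapped, and by 0.18, where both IEL arrays were higher. The remaining effectors, Adar, Ifi204, Xaf1 and Ifi35, differed by -0.41, -0.37, -0.10 and -0.09. At these main probes only Ifi35 did not overlap. The dimmer probes of Ifi204 (-0.56 and -0.32) and Adar (-0.33) were lower on both IEL arrays without overlap.

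**Figure D3:**
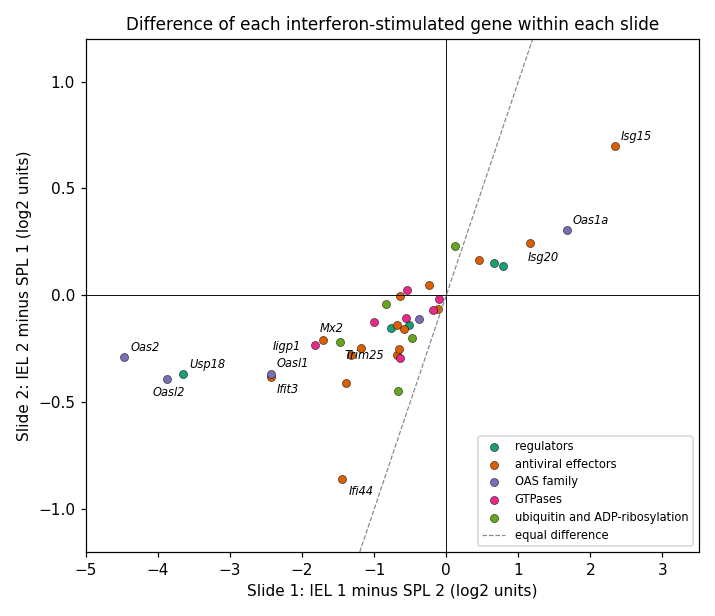
Difference of IEL minus SPL for each of the 38 genes within slide 1 (horizontal axis) and within slide 2 (vertical axis), in log2 units, coloured by role; the dashed line marks equal differences. The horizontal spread runs from -4.47 to 2.34 and the vertical spread from -0.86 to 0.70, with Isg15, Oas1a and Isg20 at the upper right.

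The OAS family showed the widest spread, with genes on either side. OAS enzymes sense double-stranded RNA and activate RNase L, whereas the OAS-like proteins Oasl1 and Oasl2 carry ubiquitin-like domains. Of the 5 genes measured, 3 were lower on both IEL arrays, 1 was higher on both, and 1 overlapped. Among all genes, 24.7% were lower on both and 24.6% were higher on both.

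Oas2 read -4.84 on IEL 1, -0.65 on IEL 2, -0.36 on SPL 1 and -0.37 on SPL 2. IEL 1 was far below the rest, and the SPL arrays differed by less than 0.01. The means were -2.75 ± 2.96 in IELs and -0.37 ± 0.00474 in SPLs (SD, n = 2 each), with a log2 fold change of -2.38 ± 1.44 (SE). The difference was 22.1-fold on slide 1 and 1.22-fold on slide 2. A second Oas2 probe read between -5.98 and -5.69 on all arrays and was not well above background on the IEL arrays. It is too dim to show a difference of this size, so the low value on IEL 1 rests on 1 probe.

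Oasl2 read -3.61 on IEL 1, 0.00 on IEL 2, 0.39 on SPL 1 and 0.26 on SPL 2. Oasl1, which is known to restrain Irf7 translation, read -2.49, -0.50, -0.14 and -0.05 in that order. Both had IEL 1 alone far below, and IEL 2 below the SPL arrays by less than 0.5 log2 units. The differences were 14.6-fold and 5.42-fold on slide 1 and 1.31-fold and 1.29-fold on slide 2. Without IEL 2, the adjusted p in limma was 0.00443 for Oas2, 0.00493 for Oasl2 and 0.00970 for Oasl1.

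Oas1a stood on the other side. It read 1.46 on IEL 1, 0.75 on IEL 2, 0.45 on SPL 1 and -0.21 on SPL 2. The arrays fell in the order IEL 1, IEL 2, SPL 1, SPL 2 with no overlap, and the arrays of a group differed by 0.70 in IELs and by 0.66 log2 units in SPLs. The log2 fold change was 0.99 ± 0.40 (SE), or 1.98-fold, with an adjusted p of 0.634 in limma and 0.0682 without IEL 2. Oas3 read -0.56 and 0.06 on IELs and 0.17 and -0.17 on SPLs and overlapped. Its second probe differed by 0.49, and no direction is drawn for it. Members of the OAS, IFIT, GBP and Ifi200 families have close copies, and cross-hybridization between copies was not tested.

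**Figure D4:**
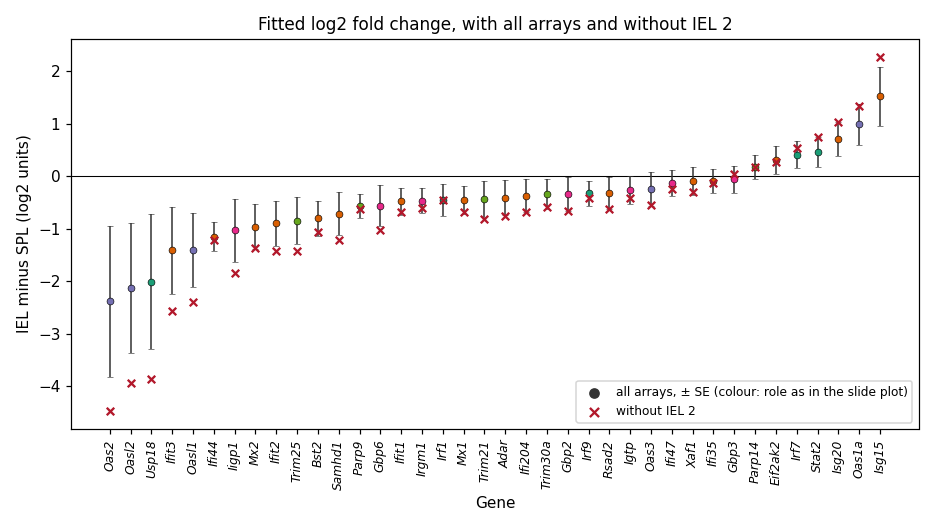
Fitted log2 fold change (IEL minus SPL) of each of the 38 genes with all 4 arrays (circles, bars are ± SE) and without IEL 2 (crosses). The crosses lie beyond the error bars for Oas2 (-4.47), Oasl2 (-3.93), Usp18 (-3.86) and Isg15 (2.28), and near the circles for Irf1 and Parp14.

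The GTPases of intracellular defence act against vacuoles of bacteria and parasites and are known as strong targets of interferon-γ. Of 7 genes, 3 were lower on both IEL arrays (42.9%), 4 overlapped and 0 were higher on both. The shares of all genes were 24.7% lower and 24.6% higher. Iigp1 read -1.74 on IEL 1, -0.10 on IEL 2, 0.13 on SPL 1 and 0.08 on SPL 2, a log2 fold change of -1.03 ± 0.60 (SE). IEL 1 alone was low, with a difference of 3.53-fold on slide 1 and 1.17-fold on slide 2, and the adjusted p in limma was 0.0153 without IEL 2. Gbp6 showed the same order in smaller steps, at -0.41, 0.52, 0.65 and 0.59. Irgm1, which regulates other members of the family, read 2.14 and 2.41 on IELs and 2.70 and 2.78 on SPLs.

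Among the 4 that overlapped, Igtp (Irgm3) read 4.65 and 4.96 on IELs and 4.94 and 5.20 on SPLs, and Ifi47 read 4.19 and 4.44 against 4.51 and 4.37. Gbp2 differed by -0.33 and Gbp3 by -0.06. The median of the 7 was -0.33, against -1.40 for the 5 OAS genes.

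Of the 5 measured genes for ubiquitin ligases and ADP-ribosylation, 3 were lower on both IEL arrays, 1 was higher on both and 1 overlapped. Over all genes the shares were 24.7% lower and 24.6% higher. Trim25, the ligase that activates the RNA sensor RIG-I, read 0.98 on IEL 1, 2.12 on IEL 2, 2.34 on SPL 1 and 2.45 on SPL 2. The log2 fold change was -0.85 ± 0.45 (SE), with an adjusted p of 0.0255 in limma without IEL 2. Its second probe differed by -0.14. Parp9, which forms a complex with Dtx3l, read -0.11 and 0.01 on IELs and 0.46 and 0.56 on SPLs. Its differences on slides 1 and 2 were -0.68 and -0.45. Parp14 read 3.55 and 3.56 on IELs and 3.33 and 3.43 on SPLs, a difference of 0.18 ± 0.23 (SE). Its dimmer probes differed by 0.23, where the groups overlapped, and by 0.53, where they did not. Trim21, an antibody receptor in the cytosol, and Trim30a differed by -0.44 and -0.34.

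The genes upstream were read from a list of 70 further pathway genes, of which 69 were found by name and 65 were tested. None of the 65 was called by limma at an adjusted p of 0.05, and 1 had an unadjusted p under 0.05. The methods' unpaired test also called 0 of them after adjustment. Of these 65, 23 were lower on both IEL arrays and 13 were higher on both, which is 35.4% and 20%, against 24.7% and 24.6% of all genes. The median log2 fold change was -0.21, against -0.00304 over all genes. Without IEL 2, 19 were called in limma, 15 as lower (23.1%) and 4 as higher (6.15%), against 10.8% and 8.94% of all genes.

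Among the ligands, Ifng was the gene with the unadjusted p under 0.05. It read 6.13 on IEL 1, 4.93 on IEL 2, 4.19 on SPL 1 and 3.19 on SPL 2, a log2 fold change of 1.84 ± 0.58 (SE). Both IEL arrays were above both SPL arrays, and its p in limma was 0.0293 unadjusted and 0.634 adjusted, and 0.0338 adjusted without IEL 2. The type I genes Ifnb1 and Ifna4 were not well above background on both arrays of either group and were not tested. Ifna2 differed by -0.12 and the type III gene Ifnl3, not well above background on IEL 1, by 0.17.

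The receptor chains of interferon-γ differed in opposite directions. Ifngr1, the ligand-binding chain, read 7.11 on IEL 1, 5.48 on IEL 2, 5.15 on SPL 1 and 5.32 on SPL 2. Ifngr2, the signal-transducing chain, read -0.48, 2.04, 2.46 and 3.22 in that order. Ifngr1 was thus higher and Ifngr2 lower on both IEL arrays, by 1.06 ± 0.60 and -2.06 ± 0.92 (SE) on the log2 scale, and both were called in limma without IEL 2, with adjusted p of 0.0157 and 0.0127.

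The type I receptor chains differed less. Ifnar1 read 1.79 and 1.15 on IELs and 1.11 and 1.21 on SPLs, and Ifnar2 read 2.43 and 2.32 against 2.26 and 2.24. Il10rb, a chain shared by the type III and interleukin-10 receptors, had a log2 fold change of -0.64 ± 0.40 (SE) and was lower on both IEL arrays, with an adjusted p of 0.0445 in limma without IEL 2. The type III chain Ifnlr1 was not tested.

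Among the kinases and STATs, Stat3, which transmits interleukin-6 family signals, read 6.69 on IEL 1, 5.13 on IEL 2, 4.72 on SPL 1 and 4.47 on SPL 2. Jak2, the kinase bound to Ifngr2, read 4.43, 2.91, 2.59 and 2.47. Both were higher on both IEL arrays, by 1.31 and 1.14 on the log2 scale, with adjusted p of 0.0139 and 0.0148 in limma without IEL 2. The feedback inhibitors Socs1 and Socs3 differed by 0.28 and -0.15.

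**Figure D5:**
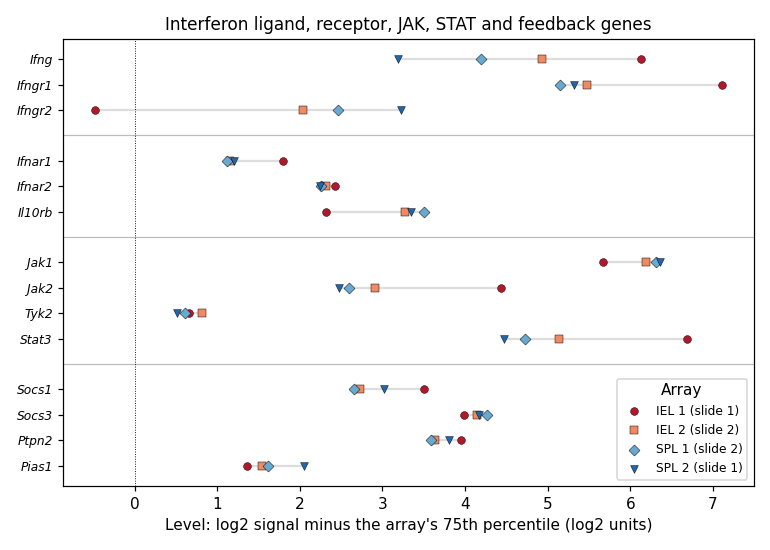
Level of interferon ligand, receptor, kinase, STAT and feedback genes on each array (log2 signal minus the 75th percentile), 1 symbol per array. Ifng, Ifngr1, Jak2 and Stat3 are highest on IEL 1 and Ifngr2 is lowest there (-0.48).

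Of the 38 tested other interferon-induced genes on that list, 15 were lower on both IEL arrays and 4 were higher on both. The shares were 39.5% and 10.5%, against 24.7% and 24.6% of all genes. Their median log2 fold change was -0.24, against -0.00304 over all genes. Slfn5, a member of the Schlafen family that restrains cell growth, read -5.52 on IEL 1, 0.30 on IEL 2, 0.60 on SPL 1 and 0.72 on SPL 2. The chemokine gene Cxcl9 read -6.34, -2.63, -2.24 and -2.54, and Ifitm3, which blocks viral entry, read -2.05, -0.19, 0.35 and 0.49. In all 3, IEL 1 stood alone, and the slide 2 differences were -0.30, -0.39 and -0.54. Slfn5 and Cxcl9 were not well above background on IEL 1, so their levels there are only bounds. Without IEL 2 the adjusted p in limma was 0.00385 for Slfn5, 0.00542 for Cxcl9 and 0.00947 for Ifitm3. Ifi30, a lysosomal reductase of antigen-presenting cells, read -0.90 on IEL 1 and between 0.81 and 1.18 on the others, with an adjusted p of 0.0196 in limma without IEL 2. Cxcl10 read 2.21 and 0.49 on IELs and 0.07 and 1.30 on SPLs and overlapped. The antigen presentation genes B2m, Psmb8, Psmb9 and Tap1 differed by between -0.25 and 0.26. Of the 11 genes on the sensor list, 3 were lower and 2 were higher on both IEL arrays. These are 27.3% and 18.2%, near the 24.7% and 24.6% of all genes. Ifih1 (MDA5) and Rigi were the 2 higher ones, by 0.54 and 0.32. Irf8 and Irf5, transcription factors listed with the sensors, were low on IEL 1 alone. They read 0.03 and -2.43 there, against at least 1.71 and -0.97 on the others.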

How the data were processed

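Per the file headers, Agilent Feature Extraction 10.7.3.1 (10.7.1.1 per the labels) gave an intensity for each of 45018 spots, with background subtracted within the array, on probes placed on mm9. The study's methods name PrimeView chips instead. The authors also deposited log2 values equalized between arrays, used as an alternative. Here, log2 of the processed intensity minus the 75th percentile of non-control spots was used, marked spots were dropped and repeat spots averaged. Probes entered the test if both arrays of a group read them well above background. The comparison used limma 3.58.1 (R 4.3.3), without a block, on 2 residual degrees of freedom, two-sided, with Benjamini-Hochberg adjustment over all 27911 tested probes. The fit was tested on simulated data, where it called changed genes only when the spread was set below that of these arrays, so the absence of calls does not show that genes did not differ. The number of arrays limits the precision. Nothing in the labels pairs the samples, and p-values measure only the spread between these samples. IEL and SPL arrays that share a number deviated from the means of their groups with a correlation of -0.0250. The genes, pathway and marker lists were chosen with earlier results of these data known. Genes given on each array are the largest non-overlapping rise and fall of each role, the 10 largest changes, the 3 highest and 3 lowest signals, and of the pathway list the ligands, receptors and the 5 largest changes in each direction; others are given by difference or chosen after their values were seen. Alternatives were other scalings, quantile normalization, normexp (offset 50), the authors' values, other filters, the methods' unpaired test, blocks, omitted samples and probe means. Some genes of the pathway and marker lists are not reported here.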

Additional observations from a re-analysis of the deposited data

How the results depend on the processing

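Without IEL replicate 2, the calls went from 0 to 5521 over all probes, from 0 to 10 over the interferon-stimulated genes and from 0 to 19 over the other pathway genes, and with any other sample left out all 3 counts were 0. That fit leaves out the IEL array nearest to the SPLs. With the replicate block, which pairs arrays that share only a number, 0 of the 38 genes were called, and with the slide as a block 0 were called. The counts of genes lower and higher on both IEL arrays stayed within 1.5 times the reported values, and the median log2 fold change ranged from -0.64 without IEL 2 to -0.13 without IEL 1. The slide 1 median was between -0.69 and -0.61 over the normalizations and the probe mean, which were added after seeing the data. Normexp moved the median of all tested probes to 0.15. It reversed Ifi44 (0.14) and Mx1 (0.0572), both below that shift, and the cause was not tested. With a sample left out in turn, Gbp2 ran from -0.66 to 0.000234, Ifi47 from -0.25 to 0.00104, Oas3 from -0.55 to 0.0622, Xaf1 from -0.31 to 0.11 and Gbp3 from -0.21 to 0.0886; the values above 0 came without IEL replicate 1, and for Gbp3 without IEL replicate 2 (0.05) and without SPL replicate 2. The mean over all probes reversed Oas3 (0.12). Dim signal limits Ifi44 on the IEL arrays, Slfn5, Cxcl9 and Ifnl3 on IEL 1, and Ifnb1 and Ifna4 on all arrays.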
